A study of Mus musculus with 18 samples.

Results

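Death receptors and the wider TNF receptor family were examined in mouse fibroblasts under 2 kinds of protein-folding stress. The members are 8 of the 20207 genes that every library lists, chosen by gene name: the ligand Tnfsf9, the receptors Tnfrsf1a, Tnfrsf1b, Tnfrsf10b, Fas and Tnfrsf12a, and the intracellular proteins Ripk1 and Dedd2. All 8 had at least 1 read in each of the 18 samples and were tested with the 12731 genes that met this filter. The cells are NIH3T3, an established mouse embryonic fibroblast line, stably carrying a destabilizing domain (DD) derived from FKBP and fused to superfolder GFP, and sorted for high GFP. Shield-1, the ligand that keeps the DD folded, was kept on the cells of all groups. There were 3 control samples without stress (0 min), 3 samples each at 45 and 135 min of heat stress (HS), and 3 samples each at 45, 135 and 405 min of tunicamycin (Tu), which blocks N-linked glycosylation of proteins in the ER.

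Receptors of this family sit at the cell surface and bind trimeric ligands of the TNF family. Tnfrsf1a, Tnfrsf10b and Fas carry an intracellular death domain, through which they gather adaptors such as Tradd and Fadd and can activate caspases. Tnfrsf1b and Tnfrsf12a lack that domain and act through Traf adaptors, mostly toward NF-kappaB. Ripk1 is the death domain kinase at the branch point between survival, apoptosis and necroptosis. Fibroblasts are known to express several of these receptors and respond to TNF with inflammatory gene expression.

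The libraries held from 33415592 to 66478268 counted reads. Levels are given as CPM, the count scaled to library size after TMM normalization, on which 3 reads amount to 0.0451 to 0.0898, or as RPKM, which also corrects for gene length. The 8 fibroblast markers (such as Col1a1 and Vim) summed to between 3850 and 12000 RPKM, with none at 0, whereas 4 endothelial markers summed to at most 0.18 RPKM and 4 epithelial markers to at most 0.366. The 7 leukocyte markers listed summed to between 4.43 and 8.31 RPKM over the 6 groups, with 1 or 2 of them at 0 in each group. The stress genes moved with the labels: at 135 min of HS the chaperone Hspa1b had a log2 fold change of 7.24 (standard error, SE, 0.651, adjusted p = 0.0058, edgeR), and by 405 min of tunicamycin the ER chaperone Hspa5 had one of 3.73 (edgeR SE 0.154, adjusted p = 4.64e-06). The labels do not say whether replicates came from separate cultures, so p-values measure only the spread between these samples.

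In 4 libraries, GC-rich genes stood more than 1 log2 unit higher, relative to GC-poor genes, than in the control mean. They were HS 45 min replicates 1 and 2 (1.41 and 1.67), HS 135 min replicate 2 (1.75) and tunicamycin 135 min replicate 1 (1.14), and the other 14 libraries lay between -0.27 and 0.64. This GC difference is the median of the top quartile of genes by transcript GC content minus that of the bottom quartile. For the members, most results that rest on these 4 libraries are given below with and without them, an alternative chosen after the data were seen. For genes of the other lists, only values with all samples are given. Leaving out the 4 libraries leaves 1 sample at 45 min of HS, replicate 3. It is assumed to vary like the group it is compared with, so its p-values there say little.

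Promoter sequences are shown for the member with the largest rise under HS (Dedd2), the member with the largest fall under tunicamycin (Tnfrsf1b), and the only one of the 6 members found in the promoter table whose promoter held a searched motif (Fas). Each is the run of 250 bases before the RefSeq start site on GRCm38.p6, 5′ to 3′ on the gene's strand, with motif matches in capitals. Dedd2 lies on the minus strand at chr7:25219860-25220109, Tnfrsf1b on the minus strand at chr4:145246871-145247120, and Fas on the plus strand at chr19:34290409-34290658.
Dedd2: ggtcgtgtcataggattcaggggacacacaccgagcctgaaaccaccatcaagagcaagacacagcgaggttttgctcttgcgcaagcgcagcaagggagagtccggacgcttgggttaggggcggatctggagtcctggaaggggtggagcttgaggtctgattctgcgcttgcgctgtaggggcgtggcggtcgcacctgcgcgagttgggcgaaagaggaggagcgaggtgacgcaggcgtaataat
Tnfrsf1b: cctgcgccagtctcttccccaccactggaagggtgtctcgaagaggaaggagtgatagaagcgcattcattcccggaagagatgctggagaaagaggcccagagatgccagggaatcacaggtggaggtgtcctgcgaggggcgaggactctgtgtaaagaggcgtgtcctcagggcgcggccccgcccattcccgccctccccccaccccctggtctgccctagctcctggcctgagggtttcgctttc
Fas: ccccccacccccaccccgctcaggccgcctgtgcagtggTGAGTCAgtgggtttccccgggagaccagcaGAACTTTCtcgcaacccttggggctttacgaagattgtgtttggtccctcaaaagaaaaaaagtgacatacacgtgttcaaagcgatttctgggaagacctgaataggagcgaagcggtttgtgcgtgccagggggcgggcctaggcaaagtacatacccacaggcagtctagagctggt

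Both strands were searched for GAANNTTC (the core of a heat shock element), TGATGNAA (the C/EBP-ATF response element), TGAGTCA (the AP-1 site) and TGACGTCA (the cAMP response element), which do not contain one another. In Fas, the AP-1 letters lay 211 to 205 bases before the start and the heat shock core letters 180 to 173 bases before it. No other promoter of the 7 found, which belong to 6 of the 8 members (Tnfrsf1a, Tnfrsf1b, Tnfrsf12a, Fas, Ripk1 with 2 start sites, and Dedd2), held any of the 4 motifs in this window. Of 32851 promoters in the table cut to the same length, 6.69% held the heat shock core, 3.45% the C/EBP-ATF letters, 4.46% the AP-1 letters and 1.55% the cAMP response element.

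In control cells, levels per length spread widely over the 8 members. Tnfrsf12a, the receptor of the ligand Tweak, had a mean of 168 RPKM, above 97.1% of the genes tested. Tnfrsf1a followed with 52.0 RPKM, and Tnfrsf1b, the TNF receptor without a death domain, had 19.0 RPKM. Tnfsf9, Tnfrsf10b and Ripk1 lay near the middle of the genes tested with 6.75, 6.74 and 5.94 RPKM, in that order. Dedd2 (2.60 RPKM) and Fas (1.03 RPKM) were the lowest, with 32.8% and 22.4% of the genes tested below them.

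The members called differed between stressed groups. All control samples are from 0 min, so in every comparison with the control the stress and the elapsed time cannot be told apart. Only tunicamycin was sampled at 405 min, so no HS samples can be set beside the calls at that time. Against the control, 4 members passed an adjusted p of 0.05 in at least 1 of 5 comparisons and 4 passed in none. Of all genes tested, 46.8% passed at 405 min of tunicamycin alone (edgeR). The share of all genes that passed in at least 1 of the 5 comparisons was not counted. The number of members called therefore does not set them apart from other genes. Tnfsf9 and Dedd2 were higher with HS, Tnfrsf1b and Ripk1 were lower at 405 min of tunicamycin, Dedd2 was slightly higher at that time, and Tnfsf9 was lower at 45 min of tunicamycin. Tnfrsf1a, Tnfrsf10b, Fas and Tnfrsf12a were not called. In these bulk samples, a change in the share of cells that express a gene and a change per cell cannot be told apart.

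**Figure D1:**
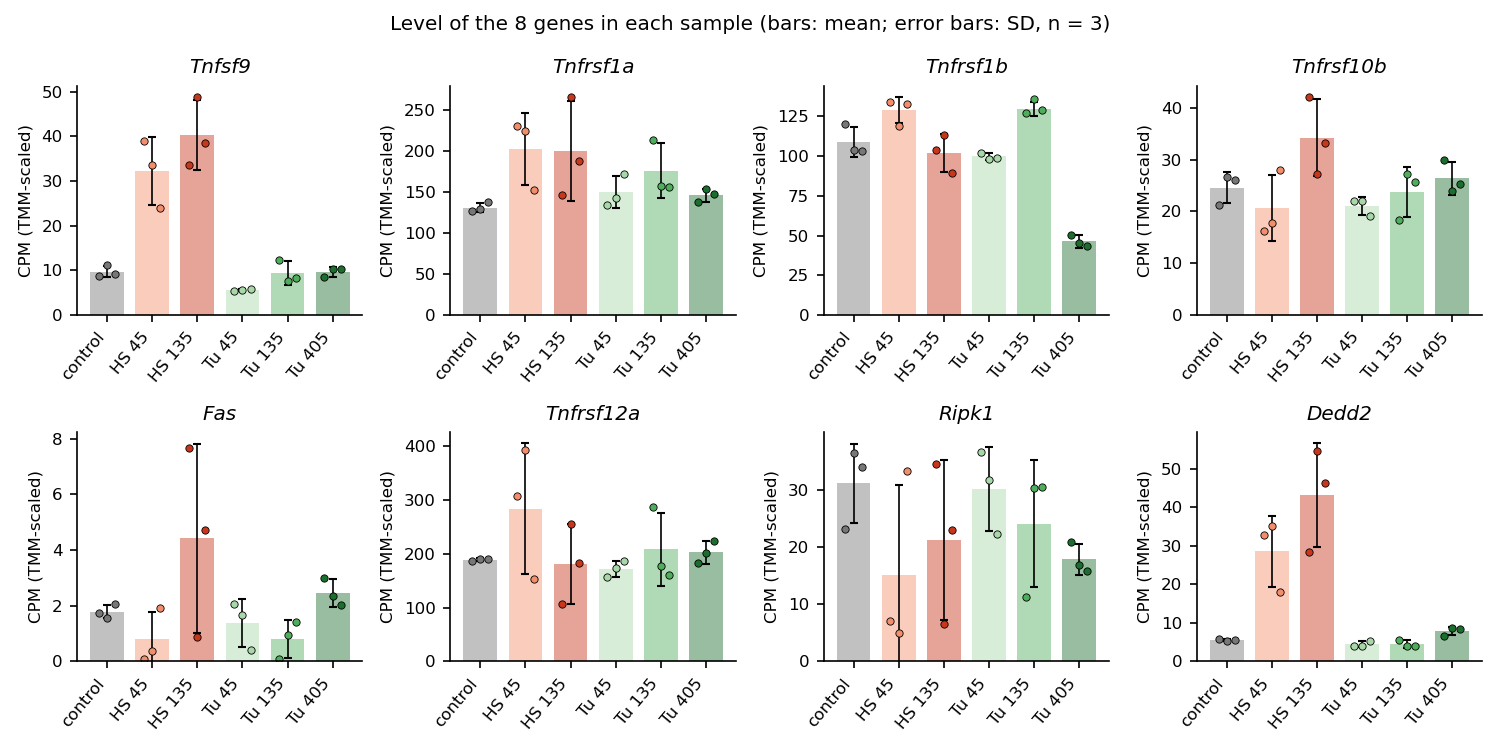
Level of each of the 8 genes in CPM (linear axis from 0) in the control and under HS and tunicamycin (Tu) at the times given in min. Points are the 18 samples, bars the mean and error bars the SD of 3 samples; Tnfsf9 and Dedd2 stand high in all 6 HS samples, Tnfrsf1b stands low in the 3 samples at 405 min of tunicamycin, and Ripk1, Fas and Tnfrsf12a spread widely within HS groups.

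Tnfsf9, the ligand of the costimulatory receptor Tnfrsf9, lies on chromosome 17 (57244808 to 57247180, plus strand, mm9). It had 8.76, 11.1 and 9.24 CPM in the control samples, 39.0, 33.6 and 23.9 CPM at 45 min of HS, and 33.6, 48.8 and 38.4 CPM at 135 min. Every HS sample lay above every control sample, and the 2 HS groups overlapped.

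At 135 min of HS the mean was 40.3 ± 7.78 CPM against 9.7 ± 1.24 CPM in the control (SD, n = 3), which is 2.05 on the log2 scale (edgeR SE 0.243, adjusted p = 0.0122). At 45 min the mean was 32.2 ± 7.63 CPM (SD, n = 3), which is 1.73 on the log2 scale (standard error 0.268), with an unadjusted p of 0.000249 and an adjusted p of 0.227 (edgeR's quasi-likelihood test), so the member was not called. A fit of all 6 groups together and the DESeq2 Wald test did call it at 45 min, with adjusted p = 0.00166 and adjusted p = 9.4e-06. Without the libraries with a high GC difference, the log2 fold change was 1.92 at 135 min (adjusted p = 0.00275, edgeR) and 1.33 at 45 min (adjusted p = 0.998, edgeR, 1 HS sample left).

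With tunicamycin Tnfsf9 took another course. Its levels were 5.3, 5.51 and 5.82 CPM at 45 min, 12.3, 7.48 and 8.26 CPM at 135 min, and 8.4, 10.3 and 10.2 CPM at 405 min. The 45 min samples lay below all control samples and all later tunicamycin samples, while the later samples overlapped the control. The fall at 45 min was 0.79 on the log2 scale (edgeR SE 0.162, adjusted p = 0.0345). Leaving out 1 sample kept the call in 1 of 6 fits, the one without control replicate 1, with adjusted p from 0.0132 to 0.191 over the 6 (edgeR). That fit called 19.6% of all genes, and the others called 0.456% to 2.07%. From 45 to 405 min of tunicamycin the gene rose by a log2 fold change of 0.75 (edgeR SE 0.137, adjusted p = 0.00195), and this call held in 6 of 6 such fits. By 405 min it had 9.62 ± 1.06 CPM (SD, n = 3), which is 0.01 on the log2 scale against the control (edgeR SE 0.161, adjusted p = 0.967).

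Dedd2, a death effector domain protein found in the nucleus, lies on chromosome 7 (25987859 to 26004878, minus strand, mm9). It had 5.72, 5.36 and 5.61 CPM in the control, 32.7, 35.1 and 18 CPM at 45 min of HS, and 28.5, 54.6 and 46.4 CPM at 135 min. All 6 HS samples stood above all other samples of the series, and the 2 HS groups overlapped each other.

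At 135 min of HS, Dedd2 averaged 43.2 ± 13.4 CPM against 5.56 ± 0.187 CPM (SD, n = 3), which is 2.96 on the log2 scale (edgeR SE 0.296, adjusted p = 0.00786), the largest rise among the 8 members. At 45 min it averaged 28.6 ± 9.26 CPM (SD, n = 3), which is 2.36 on the log2 scale (edgeR SE 0.313, unadjusted p = 8.69e-05, adjusted p = 0.192), and was not called, whereas the 6-group fit and DESeq2 gave adjusted p = 0.000831 and adjusted p = 1.49e-08. The Dedd2 transcript has 62.1% GC, more than 98.0% of the genes tested. With an offset for GC content, the log2 fold change was 2.46 at 135 min (adjusted p = 0.00217, edgeR) and 1.56 at 45 min (adjusted p = 0.0922, edgeR), and without the libraries with a high GC difference it was 2.78 (adjusted p = 0.00105, edgeR) and 1.72 (adjusted p = 0.89, edgeR).

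With tunicamycin, Dedd2 had 3.94, 4.12 and 5.31 CPM at 45 min, 5.64, 3.96 and 3.91 CPM at 135 min, and 6.69, 8.55 and 8.28 CPM at 405 min. The 405 min samples lay above all control samples and all earlier tunicamycin samples. Against the control the log2 fold change at 405 min was 0.52 (edgeR SE 0.159, adjusted p = 0.0277), a call kept in 4 of 9 other settings. It was lost with the GC offset (0.32, adjusted p = 0.0955, edgeR), with it and the replicate block (0.32, adjusted p = 0.1), with the block alone (0.51, adjusted p = 0.073), with total counts (0.42, adjusted p = 0.0543), in the 6-group fit (0.49, adjusted p = 0.177) and in the 4 of 6 fits that left out control replicate 2 or 3 or tunicamycin replicate 2 or 3 (0.45 to 0.50, adjusted p from 0.0859 to 0.122, edgeR). Against 45 min of tunicamycin it was 0.78 (edgeR SE 0.164, adjusted p = 0.00417), and this call held in 6 of 6 such fits. Against 135 min it was also 0.78 (edgeR SE 0.212, adjusted p = 0.0201), a call kept in the 2 of 6 fits that left out tunicamycin 135 min replicate 1 or tunicamycin 405 min replicate 1.

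Read against the background, 2 of 8 members were called higher at 135 min of HS, where 4.75% of all genes tested were, and 0 were called lower, where 2.64% were. At 45 min of HS no member was called in either direction, and edgeR called no gene at all there (0.0% in each direction). At that time 3 members had an unadjusted p under 0.05, all higher, as did 12.3% of all genes in that direction and 7.16% in the other. DESeq2 called 2 members, both higher, where it called 3.06% of the genes higher and 0.515% lower. The median log2 fold change of the 8 members was 0.41 at 45 min and 0.54 at 135 min, beside -0.03 and -0.02 for all genes tested. With the GC offset the members' median was 0.09 at 45 min and 0.47 at 135 min. Without the libraries with a high GC difference it was 0.22 at 45 min (1 HS sample left) and 0.51 at 135 min.

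Leaving out 1 sample kept the calls of Tnfsf9 and Dedd2 at 135 min of HS in 3 of 6 fits each. They were lost without control replicate 2, without control replicate 3 and without HS replicate 3. The adjusted p were 0.0797, 0.086 and 0.0761 for Tnfsf9 and 0.0595, 0.065 and 0.0638 for Dedd2 (edgeR). Of all genes, only 0.118%, 0.0864% and 0.0864% were called in these 3 fits, in that order. In all 6 fits Tnfsf9 stayed between 1.92 and 2.17, and Dedd2 between 2.78 and 3.18, on the log2 scale.

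**Figure D2:**
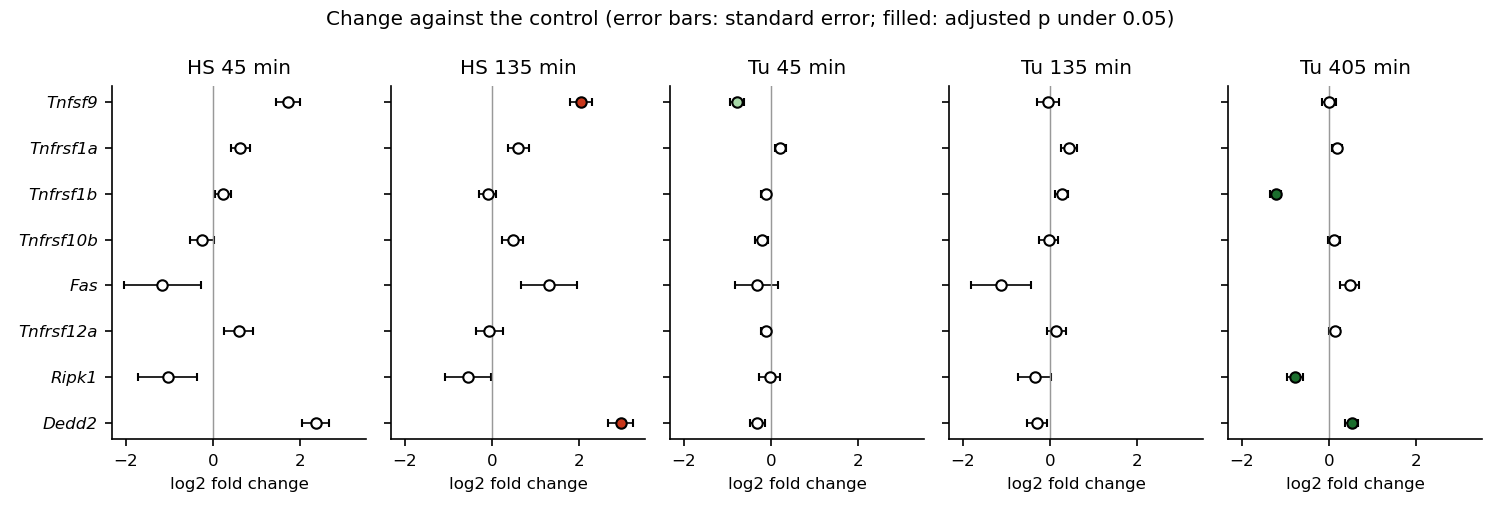
Log2 fold change of each gene against the control for HS and tunicamycin (Tu) at each time, with standard errors from edgeR; filled points passed an adjusted p of 0.05. Dedd2 and Tnfsf9 lie at 2.96 and 2.05 at 135 min of HS, and Tnfrsf1b lies at -1.22 at 405 min of tunicamycin.

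HS and tunicamycin were then compared directly at equal times, which does not use the control samples. At 45 min, Tnfsf9 was higher with HS by a log2 fold change of 2.53 (edgeR SE 0.235, adjusted p = 0.0455) and Dedd2 by 2.68 (edgeR SE 0.311, adjusted p = 0.0455). At 135 min the differences were 2.08 for Tnfsf9 (edgeR SE 0.274, adjusted p = 0.0241) and 3.24 for Dedd2 (edgeR SE 0.321, adjusted p = 0.0145). These were the only members called, 2 of 8 at each time, where 0.204% of all genes were called at 45 min and 2.12% at 135 min. Leaving out 1 sample kept the calls of either gene in 1 of 6 fits at 45 min (without HS replicate 3) and in 2 of 6 at 135 min (without HS replicate 1 or 2). Log2 fold changes stayed at 1.95 or more, with adjusted p of up to 0.393 at 45 min and 0.183 at 135 min (edgeR). The fit without HS 45 min replicate 3 rests on 2 HS libraries with a high GC difference. It called 3416 genes higher and 3671 lower, and the other such fits at 45 min called 0 genes. At 135 min the fits that lost the calls called at most 2 genes higher and 1 lower. Without the libraries with a high GC difference, both genes kept their calls at 135 min. At 45 min, with 1 HS sample left, the log2 fold change was 2.03 for Dedd2 (adjusted p = 0.0881, edgeR) and 2.12 for Tnfsf9 (adjusted p = 0.0398, edgeR), and no call is read from it. Between 45 and 135 min of HS, 0 members were called, as were 0.0% of all genes, and no member had an unadjusted p under 0.05.

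Tnfrsf1b, the TNF receptor that lacks a death domain, lies on chromosome 4 (144802271 to 144836773, minus strand, mm9). It had 120, 104 and 103 CPM in the control, 102, 98.4 and 98.8 CPM at 45 min of tunicamycin, 127, 136 and 129 CPM at 135 min, and 50.6, 45.3 and 43.1 CPM at 405 min. The 405 min samples were the 3 lowest of the 18. Under HS it had 134, 119 and 133 CPM at 45 min and 104, 113 and 89.6 CPM at 135 min, and both groups overlapped the control.

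At 405 min of tunicamycin, Tnfrsf1b averaged 46.3 ± 3.86 against 109 ± 9.65 CPM (SD, n = 3) and fell by 1.22 on the log2 scale (edgeR SE 0.128, adjusted p = 0.00021), a level 2.32-fold lower. It fell by 1.15 from the 45 min level (edgeR SE 0.1, adjusted p = 4.27e-05) and fell by 1.52 from the 135 min level (edgeR SE 0.123, adjusted p = 0.000121). The call against the control held in 6 of 6 fits that left out 1 sample and in 9 of 9 other settings, between -1.31 and -1.13. Replicates of this gene were close in each group, where the highest sample was at most 1.26 times the lowest. Its level rose from 99.8 ± 2.15 CPM at 45 min to 130 ± 4.41 CPM at 135 min (SD, n = 3) without a call (log2 fold change 0.39, adjusted p = 0.183, edgeR), though DESeq2 called it (0.41, adjusted p = 0.0191).

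Ripk1 lies on chromosome 13 (34094743 to 34127039, plus strand, mm9). It had 23.2, 36.3 and 33.9 CPM in the control, 36.6, 31.6 and 22.2 CPM at 45 min of tunicamycin, 11.2, 30.3 and 30.5 CPM at 135 min, and 20.8, 16.8 and 15.8 CPM at 405 min. All 405 min samples lay below all control samples and all 45 min samples. The gene fell by 0.78 on the log2 scale against the control (edgeR SE 0.192, adjusted p = 0.0107) and by 0.81 against 45 min (edgeR SE 0.201, adjusted p = 0.00886). The call against the control was lost without tunicamycin 405 min replicate 3 (adjusted p = 0.0513, edgeR) and in the 6-group fit (adjusted p = 0.359, edgeR), and it held with the GC offset (-0.67, adjusted p = 0.00401, edgeR). The call against 45 min was lost in the 6-group fit (-0.76, adjusted p = 0.413, edgeR) and held in 6 of 6 fits that left out 1 sample.

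Under HS the level of Ripk1 differed between replicates more than between groups. It was 7.1, 4.99 and 33.2 CPM at 45 min and 34.4, 6.45 and 22.9 CPM at 135 min. The 4 libraries with a high GC difference were the 4 lowest of the 18 for this gene, from 4.99 to 11.2 CPM, and the other 14 lay between 15.8 and 36.6 CPM. The Ripk1 transcript has 46.3% GC, and 27.5% of the genes tested have less. At 45 min of HS the log2 fold change was -1.04 (adjusted p = 0.352, edgeR) with all samples and 0.12 (adjusted p = 0.998, edgeR) without the libraries with a high GC difference, and at 135 min it was -0.55 (adjusted p = 0.504, edgeR) and -0.09 (adjusted p = 0.855, edgeR).

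**Figure D3:**
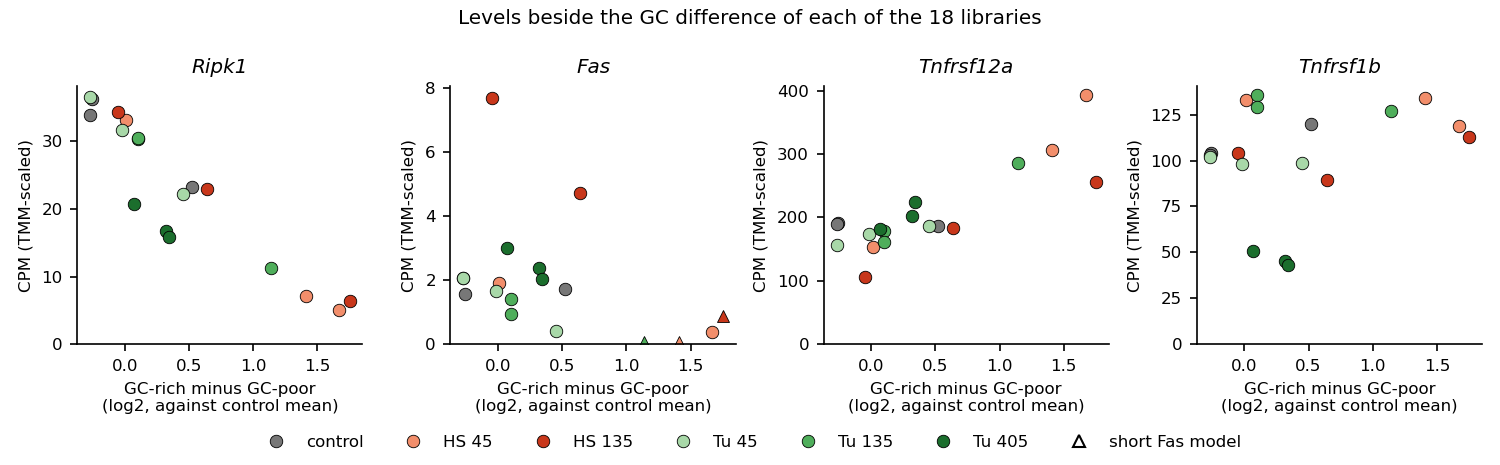
CPM of 4 genes (linear axis from 0) against the GC difference of each of the 18 libraries, in log2 units from the control mean, coloured by group. The libraries with a difference from 1.14 to 1.75 hold the lowest Ripk1 and the highest Tnfrsf12a levels, triangles mark the 3 libraries in which Fas was counted on a shorter gene model, and Tnfrsf1b is low only in the 3 samples at 405 min of tunicamycin, whose GC differences are 0.07, 0.32 and 0.34.

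Of the 8 members, 1 was called higher and 2 lower at 405 min of tunicamycin, where 23.3% of all genes tested were higher and 23.5% lower. At 45 min of tunicamycin 0 were higher and 1 lower, beside 4.01% and 2.17% of all genes. At 135 min 0 members were called, beside 0.126% higher and 0.00785% lower, with 1 member (Tnfrsf1a, higher) at an unadjusted p under 0.05 and 0 called by DESeq2. The count at 405 min is thus near its background, as are the direct comparisons with 45 min (4 of 8 members, 52.5% of all genes) and with 135 min (2 of 8 members, 43.7% of all genes). Without tunicamycin 135 min replicate 1, which has a high GC difference and the shorter Fas model, 4 members were called in the last of these, with Ripk1 at -0.79 (adjusted p = 0.000388, edgeR) and Fas at 1.08 (adjusted p = 0.00329, edgeR) beside Tnfrsf1b and Dedd2, where 63.8% of all genes were called. Between 45 and 135 min of tunicamycin 0 members were called beside 0.291% of all genes, with Tnfrsf1b and Tnfsf9 at unadjusted p of 0.00838 and 0.00987 (edgeR), and DESeq2 called both, where it called 4.85% of all genes.

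Tnfrsf1a, the main death domain receptor for TNF, lies on chromosome 6 (125299741 to 125312501, plus strand, mm9). It had 127, 129 and 138 CPM in the control, 231, 224 and 152 CPM at 45 min of HS, and 146, 266 and 188 CPM at 135 min. With tunicamycin it had 134, 143 and 172 CPM at 45 min, 214, 157 and 156 CPM at 135 min, and 138, 154 and 147 CPM at 405 min. All HS samples lay above all control samples, and the 4 highest of the 18 values, from 214 to 266 CPM, were those of the 4 libraries with a high GC difference. The log2 fold changes were 0.63 at 45 min of HS (edgeR SE 0.225, adjusted p = 0.234), 0.61 at 135 min (edgeR SE 0.248, adjusted p = 0.15) and 0.44 at 135 min of tunicamycin (edgeR SE 0.176, adjusted p = 0.242), and without those libraries they were 0.24, 0.38 and 0.29. Without HS 135 min replicate 1, the HS sample of that time with the lowest GC difference (-0.05), the change at 135 min of HS was called (0.79, adjusted p = 0.0417, edgeR), as it was with all samples in the 6-group fit (0.61, adjusted p = 0.0457, edgeR), where 12.1% and 14.4% of all genes were called higher.

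Tnfrsf12a showed the same 4 libraries at its top. It lies on chromosome 17 (23812414 to 23814416, minus strand, mm9) and had 186, 191 and 190 CPM in the control, 307, 393 and 153 CPM at 45 min of HS, and 106, 256 and 183 CPM at 135 min. The 4 libraries held 256 to 393 CPM and the other 14 held 106 to 224 CPM. At 45 min of HS the log2 fold change was 0.59 (edgeR SE 0.335, adjusted p = 0.308), against -0.27 (adjusted p = 0.998, edgeR) without them. The listed positions of Tnfrsf12a overlap those of Hcfc1r1, so reads could be split between these genes.

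With tunicamycin Tnfrsf12a had 157, 174 and 187 CPM at 45 min, 286, 178 and 161 CPM at 135 min, and 182, 202 and 224 CPM at 405 min, overlapping the control at each time. At 405 min its mean was 203 ± 21.5 CPM against 189 ± 2.75 CPM in the control (SD, n = 3), which is 0.13 on the log2 scale (edgeR SE 0.124, adjusted p = 0.435).

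Tnfrsf10b, the mouse death receptor for Trail, lies on chromosome 14 (70167336 to 70184218, plus strand, mm9). It had 21.2, 26.6 and 26.0 CPM in the control, 16.2, 17.7 and 27.9 CPM at 45 min of HS, and 42.1, 27.3 and 33.2 CPM at 135 min. All 135 min samples lay above the control, with a log2 fold change of 0.48 (edgeR SE 0.239, adjusted p = 0.218). With the GC offset it was called higher (0.59, adjusted p = 0.0373, edgeR), where 11.3% of all genes were. That was 1 call in 10 other settings, and 0 of 6 fits that left out 1 sample called it. Without HS 135 min replicate 2, which has a high GC difference, it was 0.65 (adjusted p = 0.0903, edgeR). Tunicamycin gave 21.9, 22.0 and 19.1 CPM at 45 min, 18.3, 27.3 and 25.7 CPM at 135 min, and 30.0, 24.0 and 25.2 CPM at 405 min. These groups overlapped the control, with a log2 fold change of 0.12 at 405 min (edgeR SE 0.146, adjusted p = 0.509), in the same samples in which the stress factor gene Ddit3 (CHOP) had a log2 fold change of 5.22 (edgeR SE 0.186, adjusted p = 2.45e-06).

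Fas lies on chromosome 19 (34365149 to 34402260, plus strand, mm9) and was the lowest member in the control. Its level in HS 45 min replicate 1, HS 135 min replicate 2 and tunicamycin 135 min replicate 1 cannot be set beside the others, because these 3 libraries list a gene that ends at 34383840. There the length implied by count and RPKM was 679 to 689 bases, against 1777 to 1906 bases in the other 15 libraries. All 3 were among the 4 with a high GC difference.

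In libraries with the longer model, Fas had 1.73, 1.57 and 2.06 CPM in the control, 0.37 and 1.92 CPM at 45 min of HS, and 7.67 and 4.71 CPM at 135 min. Tunicamycin gave 2.06, 1.66 and 0.402 CPM at 45 min, 0.937 and 1.4 CPM at 135 min, and 3.0, 2.36 and 2.02 CPM at 405 min. The 135 min HS samples were the highest of these. In libraries with the shorter model it had 0.0764, 0.886 and 0.0726 CPM at HS 45 min, HS 135 min and tunicamycin 135 min.

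With all samples Fas had a log2 fold change of 1.31 at 135 min of HS (edgeR SE 0.648, adjusted p = 0.213). Without HS 135 min replicate 2 it was 1.82 (adjusted p = 0.00886, edgeR), a call that rests on 2 HS samples. At 405 min of tunicamycin, where every library had the longer model, it was 0.48 (edgeR SE 0.214, adjusted p = 0.0955) and 0.58 with the GC offset (adjusted p = 0.0402, edgeR). With that offset 26.6% of all genes were called higher there.

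At 45 min of HS the outcome turned on replicate 3, the only sample of that group without a high GC difference. Without it, 6 members were called against the control, with Dedd2, Tnfsf9, Tnfrsf12a and Tnfrsf1a higher and Ripk1 and Fas lower (log2 fold changes 2.61, 1.9, 0.89, 0.8, -2.36 and -3.02, adjusted p from 0.000414 to 0.00661, edgeR), but 45.4% of all genes were called in this fit, and 1 of the 2 remaining HS samples holds the shorter Fas model. With replicate 3 as the only HS sample, Ripk1 and Fas had log2 fold changes of 0.12 and 0.13 and Tnfrsf12a had -0.27, while Dedd2 and Tnfsf9 had 1.72 and 1.33. With all samples and the GC offset, the log2 fold changes at 45 min of HS were 0.04 for Tnfrsf12a (0.59 without the offset), 0.30 for Tnfrsf1a (0.63), -0.84 for Ripk1 (-1.04), -0.91 for Fas (-1.16), 1.76 for Tnfsf9 (1.73) and 1.56 for Dedd2 (2.36), and none was called.

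Ordered by mean level, most neighbouring groups overlapped for each member. Dedd2 ran from HS 135 min and HS 45 min, which overlapped, to tunicamycin 405 min, then the control, with gaps between the samples at both steps, and to the other tunicamycin times, which overlapped. Tnfsf9 had gaps below HS 45 min and above tunicamycin 45 min. Tnfrsf1b had 1 gap, above tunicamycin 405 min, and Tnfrsf1a 1 gap, above the control, between values that both round to 138 CPM. Tnfrsf10b, Tnfrsf12a, Fas and Ripk1 had none.

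The other receptors of the family gave 16 tested genes of 23. At 135 min of HS 1 was higher and 0 were lower, where 4.75% and 2.64% of all genes were. The higher one, Tnfrsf25, a death domain receptor, averaged 8.06 ± 4.07 against 0.838 ± 0.472 CPM (SD, n = 3), which is 3.27 on the log2 scale (edgeR SE 0.538, adjusted p = 0.02). At 405 min of tunicamycin 2 were higher and 3 lower, where 23.3% and 23.5% of all genes were. Tnfrsf21, a death domain receptor, had a log2 fold change of 0.92 (adjusted p = 0.00223, edgeR) and Tnfrsf11b, the soluble decoy receptor osteoprotegerin, one of 0.5 (adjusted p = 0.0256, edgeR). Relt fell by 1.53 (adjusted p = 0.000251, edgeR), Tnfrsf23, a Trail decoy receptor, by 1.17 (adjusted p = 0.00147, edgeR) and Tnfrsf26 by 1.86 (adjusted p = 0.00139, edgeR) on the log2 scale. Tnfrsf26 was low throughout, with a mean of 0.119 CPM at 405 min against 0.445 CPM in the control, close to the floor of 3 reads. Relt was also the 1 receptor lower at 45 min of tunicamycin (-0.70, adjusted p = 0.0476, edgeR), where 2.17% of all genes were lower.

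Of 17 other ligands, 6 were tested, and the genes for TNF (Tnf), Fas ligand (Fasl) and Cd70 were among the 11 below the filter. At 405 min of tunicamycin 1 ligand was higher, where 23.3% of all genes were. This was Lta (lymphotoxin alpha), with 0.949 ± 0.152 against 0.397 ± 0.112 CPM (SD, n = 3), higher by 1.25 on the log2 scale (edgeR SE 0.274, adjusted p = 0.00656). No other ligand was called in any comparison with the control, where at 135 min of HS 3 had an unadjusted p under 0.05 in the direction of a fall and 1 in that of a rise. Over all genes, 13.5% had such a fall and 16.1% such a rise.

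In the TNF receptor signalling complex, 22 of 26 genes were tested, and at 405 min of tunicamycin 4 were higher and 5 lower. Of all genes, 23.3% were higher and 23.5% lower there. Tank (0.98), Sharpin (0.96), a subunit of the linear ubiquitin ligase, the deubiquitinase Cyld (0.82) and the adaptor Traf2 (0.69) rose on the log2 scale, with adjusted p of 0.0122, 0.000757, 0.00107 and 0.00146 (edgeR). The kinases Map3k5 and Map3k7, which act below the receptors, fell by 1.5 and 0.91 on the log2 scale (adjusted p = 0.00547 and 0.00104, edgeR), and Traf3, Traf6 and Tnfaip3 were also lower. At 45 min of tunicamycin 3 were higher (Traf2, Traf5 and Tnfaip3) and 0 lower, and at 135 min of HS 0 were higher and 1, the linear deubiquitinase gene Fam105b, was lower. The shares of all genes were 4.01% higher and 2.17% lower at 45 min of tunicamycin, and 4.75% and 2.64% at 135 min of HS.

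Among genes of the death-inducing signalling complex and caspases, 16 of 18 were tested. Calls came only at 405 min of tunicamycin, with 7 higher and 5 lower, where 23.3% and 23.5% of all genes were. The caspase gene Casp6 fell by 1.15 on the log2 scale (adjusted p = 0.000254, edgeR), Casp8ap2 fell by 1.35 (adjusted p = 0.00241, edgeR), and the caspase inhibitor Xiap fell by 0.95 (adjusted p = 0.00878, edgeR). Cradd, an adaptor of caspase activation, had a log2 fold change of 1.05 (adjusted p = 0.00157, edgeR) and Daxx one of 0.59 (adjusted p = 0.00547, edgeR). Bid, Cflar, Dedd, Diablo and Faim were also higher, and Casp2 was among the lower genes. The median log2 fold change at 405 min was 0.19 over these genes, 0.04 over the signalling complex, -0.28 over the other ligands and -0.47 over the other receptors, beside -0.01 over all genes tested.

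**Figure D4:**
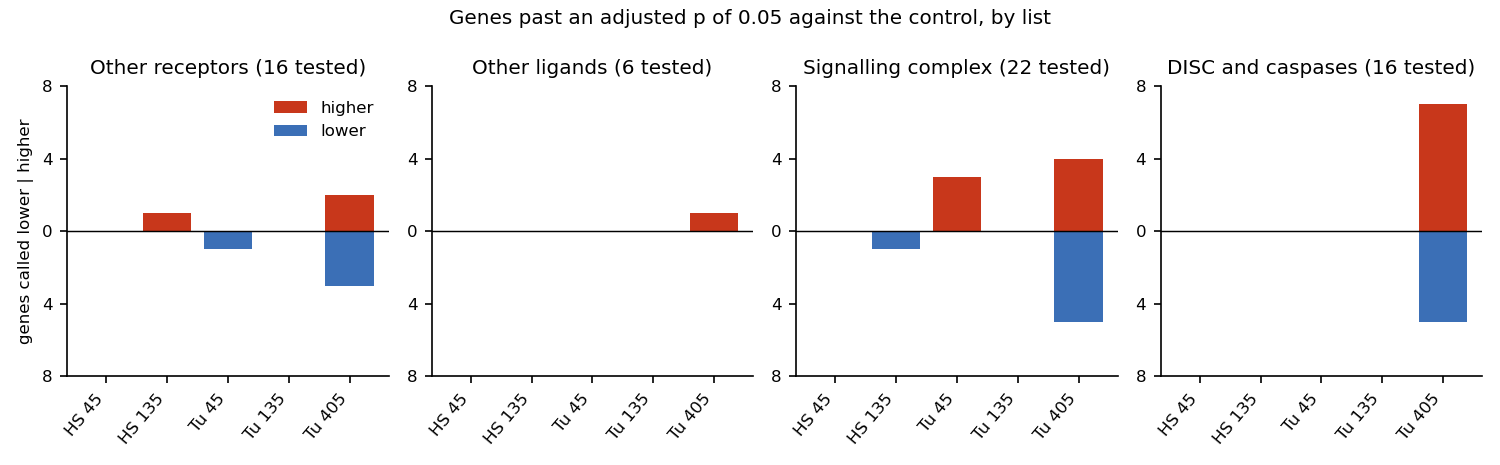
Genes past an adjusted p of 0.05 (edgeR) against the control in 4 lists of the pathway, counted up for higher and down for lower, by stress and time in min. Most calls fall at 405 min of tunicamycin, where 23.3% and 23.5% of all genes were called higher and lower.

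For each called member, the genes with the most similar course over the 5 comparisons with the control were found among 9377 genes with a mean of at least 5 CPM, by the mean absolute difference of 5 log2 fold changes, which share the control samples. For Tnfrsf1b they were Chd4, Itga5 and Nfkbil2 (differences 0.06, 0.07 and 0.09). For Ripk1 they were Steap2, Ankmy2 and Stag2 (0.07, 0.08 and 0.08). Tnfsf9 was followed by Vgll4, Fbxl14 and Rbm38 (0.17, 0.17 and 0.31), and Dedd2 by Fam43a, Oaz1 and Vgll4 (0.41, 0.48 and 0.52). The nearest gene to Dedd2 was farther from it than the third nearest was from each of the other 3 members.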

How the data were processed

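RNA of 18 NIH3T3 samples (6 groups of 3) was sequenced, and per the labels and the study's methods the authors used DNAnexus to align reads (mm9) and to count them per RefSeq gene. The aligner and counter are not given in the sources used here. The authors deposited an estimated count per gene, not normalized, of which 17.7% to 23.2% of the low values per library were not whole. They also deposited RPKM (used for levels per length), a score (the RPKM standardized within a library by the authors) and a signal (the RPKM divided by its root mean square by the authors), neither of which was tested. Files were joined by gene name, since 741 genes have positions that vary between them.

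Estimated counts were rounded. The 2 groups of each comparison were fitted with edgeR 4.0.16 (R 4.3.3; TMM, quasi-likelihood test), and p-values adjusted by Benjamini-Hochberg over 12731 genes with at least 1 read in every sample. A call is an adjusted p under 0.05. CPM are TMM-scaled over all samples. Standard errors come from the fold change and its F statistic. A floor of 3 reads covers counting error only. Scripts were tested on simulated data.

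All members and lists, and the rule naming up to 6 called genes per list with values and 3 most similar genes per called member, were chosen with earlier results of these data known. The values of 1 gene that this rule names are not reported here. Alternatives were DESeq2 1.42.0 (Wald test or size factors only), total counts without TMM, filterByExpr, no filter, 1 fit of the 6 groups, a block for replicate number, a GC offset (lowess span 0.3 on GENCODE transcript GC, known for 97.7% of tested genes) with and without the block, each sample left out, and the 4 libraries with a GC difference over 1 left out. Same-numbered samples deviated together in every pair (correlations 0.284 to 0.335) only between tunicamycin at 135 min and the control, by the replicate numbers in the labels. Promoters are from RefSeq (GRCm38.p6). Figures were drawn with matplotlib 3.10.9.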

Additional observations from a re-analysis of the deposited data

Results flagged for a closer look

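Log2 fold changes between stressed groups that passed an adjusted p of 0.05 in a direct comparison (edgeR, 3 samples against 3) are listed. The level then differs between times or between stresses. No unstressed samples of the later times are in the series, so between tunicamycin times the stress and the elapsed time cannot be told apart. Between 405 and 45 min of tunicamycin they were -1.15 for Tnfrsf1b, 0.75 for Tnfsf9, -0.81 for Ripk1 (lost in the 6-group fit) and 0.78 for Dedd2. Between 405 and 135 min they were -1.52 for Tnfrsf1b and 0.78 for Dedd2. Between HS and tunicamycin they were 2.53 for Tnfsf9 and 2.68 for Dedd2 at 45 min, and 2.08 for Tnfsf9 and 3.24 for Dedd2 at 135 min. For each of these values all 3 samples of one group lay on 1 side of all 3 of the other, among genes already picked by adjusted p. The share of all genes that separate so was not counted. Of all genes, 52.5% and 43.7% were called in the 2 comparisons at 405 min. Between HS and tunicamycin, 0.204% were called at 45 min and 2.12% at 135 min. The calls between HS and tunicamycin at 45 min held in 1 of 6 fits that left out 1 sample, the one without HS replicate 3. That fit called 3416 genes higher and 3671 lower, and the other such fits called 0 genes.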

How the results depend on the processing

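Among called values, 131 kept and 21 lost the call over the settings other than leaving out 1 sample, and 58 kept and 38 lost it when 1 sample was left out, with no change of sign. The 6-group fit and DESeq2 each called 2 members at 45 min of HS (10.6% and 3.57% of all genes), the 6-group fit called 1 at 405 min of tunicamycin (31.9%), and DESeq2 called 2 between tunicamycin at 135 and 45 min (4.85%). With the replicate block 0 members were called at 135 min of HS (0.0% of all genes) and at 45 min of tunicamycin (0.165%). It also called 0 members between HS and tunicamycin at 45 or 135 min, where it called 0 genes at all. Between tunicamycin at 405 and 135 min it called 1 member (29.5% of all genes). With block and GC offset together 0 members were called at 45 min of tunicamycin (4.51% of all genes). Between HS and tunicamycin at either time 0 members and 0 genes were called with both. Same-numbered samples deviated together in every pair only for tunicamycin at 135 min against the control, where the block changed no call. Elsewhere the correlations of same-numbered pairs ran from -0.826 to 0.791. The labels do not say whether same-numbered samples were paired, and these correlations cannot settle it.

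Without the 4 libraries with a GC difference over 1, an alternative chosen after seeing the data, 1 member was called between HS at 135 and 45 min (Fas, with 1 sample left at 45 min, where 1.04% of all genes were called), 4 between tunicamycin at 405 and 135 min (Tnfrsf1b, Dedd2, Ripk1 and Fas, where 63.8% of all genes were called) and 1 between HS and tunicamycin at 45 min (0.0864% of all genes, with 1 HS sample left). Leaving out 1 sample, the count ran from 0 to 3 at 135 min of HS, where 0.0864% to 19.4% of all genes were called. With tunicamycin it ran from 0 to 1 at 45 min (0.456% to 19.6%) and from 1 to 3 at 405 min (31.9% to 62.0%). Between tunicamycin at 405 and 135 min it ran from 1 to 4 (27.9% to 63.8%). Between HS and tunicamycin at 135 min it ran from 0 to 2 (from 0 genes to 273 higher and 91 lower). It ran from 0 to 6 at 45 min of HS and between HS and tunicamycin at 45 min. Both counts of 6 came without HS 45 min replicate 3. Then 45.4% of all genes were called against the control, and 3416 higher and 3671 lower against tunicamycin. Every other such fit called 0 genes in these 2 comparisons. The cause of these changes was not tested.

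Changes of sign were all among uncalled values. Without the 4 libraries, the log2 fold changes at 45 min of HS were 0.21 for Tnfrsf10b, -0.27 for Tnfrsf12a, 0.13 for Fas and 0.12 for Ripk1, and at 135 min of tunicamycin 0.14 for Tnfrsf10b and -0.12 for Tnfrsf12a. With total counts, Ripk1 was 0.08 at 45 min and Tnfsf9 -0.09 at 405 min of tunicamycin. With the GC offset, and with it and the block, at 135 min of tunicamycin Tnfrsf10b was 0.02 and 0.01 and Tnfrsf12a -0.10 and -0.10, and at 405 min Tnfsf9 was -0.01 and -0.01. At 405 min Tnfrsf12a was -0.00 with the GC offset, and Tnfsf9 was -0.00 with filterByExpr and -0.01 with the 6-group fit. Leaving out 1 sample, Tnfrsf12a ran from -0.36 to 0.21 at 135 min of HS, Fas from -0.73 to 0.09 and Ripk1 from -0.20 to 0.16 at 45 min of tunicamycin, Tnfrsf10b from -0.15 to 0.14, Tnfrsf12a from -0.12 to 0.30 and Tnfsf9 from -0.27 to 0.09 at 135 min, and Tnfsf9 from -0.05 to 0.10 at 405 min. Fas was near the floor of 3 reads in HS 45 min replicate 1 and tunicamycin 135 min replicate 1, at 0.0764 and 0.0726 CPM, where depth limits its value.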
